A study of Mus musculus with 2 samples.

Results

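The MHC class II presentation genes encode the machinery that shows peptides from endosomes to CD4 T cells. They were followed here in fat from mice of the inbred strain C57BL/6. The 10 genes were chosen by symbol, H2-Aa, H2-Ab1, H2-Eb1, H2-DMa, H2-DMb1, H2-DMb2, H2-Oa, H2-Ob, Cd74 and Ciita. Of these, 9 are among the 18193 genes with a probe set of their own on the array. A probe set is a group of short probes on the array that report 1 transcript or a few.

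Mice were fed the high fat diet HFD32, or the normal diet CE-2 as the control, from 6 to 18 weeks of age, and tissue was taken at the end. RNA of 3 animals was pooled for each diet and measured on 1 Affymetrix array per diet. Neither the sex of the animals nor the depot of fat is stated in the labels. With 1 array per diet there was no replicate check and no test, so each difference compares 2 pools and the number of arrays limits the precision.

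Class II molecules are pairs of an alpha and a beta chain that are made in professional antigen-presenting cells, chiefly dendritic cells, macrophages and B cells. New pairs bind the invariant chain, which Cd74 encodes, and travel to endosomes, where proteases cut that chain down to a fragment called CLIP. H2-DM, a pair of an alpha and a beta chain that stays inside the cell, exchanges CLIP for peptide, and H2-O, found mainly in B cells, restrains H2-DM. CIITA, the product of Ciita, switches on class II promoters by joining factors bound at their X and Y boxes. In obese fat, macrophages and adipocytes have both been described to carry class II molecules.

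Values are RMA signals on a log2 scale, and every difference is the high fat diet value minus the normal diet value on that scale. On this scale 1 unit is a factor of 2. A level of 5.44, the median of all probe sets other than controls, served as the floor for counting. A level under the 95th percentile of 81 probe sets of sensory receptor genes (4.96 on the high fat diet array and 4.94 on the normal diet array) is called below background. The only error available lies within the arrays, an SD of 0.27 between the differences of probe sets of 1 gene, over 5131 genes with several probe sets.

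Of the 22 probe sets that name a member, 19 name 1 gene, 2 name both H2-DMb1 and H2-DMb2, and 1 names H2-Ob together with the non-coding RNA gene Gm20506. H2-DMb1 has no probe set of its own here, so 9 of 10 members could be read alone. Of the 21 probe sets that name members only, 18 lay above the floor. Among these 21, 6 end in _x_at and 3 in _s_at, the manufacturer's marks for probes that can match several transcripts.

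The sequences before the annotated start sites introduce the genes and the shared element of their promoters. RefSeq (GRCm38.p6) promoter windows were found for 7 members, and 6 are shown as the 120 bases that end just before the start site, 5′ to 3′. H2-Aa and H2-Eb1 had higher signals under the high fat diet. H2-DMb1 and H2-DMb2 are neighbouring genes with shared probe sets, and only H2-DMb2 also has probe sets of its own. H2-Oa and H2-Ob encode the restraining pair. Capitals mark the Y box core, CCAAT or its reverse complement ATTGG, and the core of the X2 box, TGACG or its reverse complement CGTCA.
H2-Aa, chr17:34287824-34287943, minus strand: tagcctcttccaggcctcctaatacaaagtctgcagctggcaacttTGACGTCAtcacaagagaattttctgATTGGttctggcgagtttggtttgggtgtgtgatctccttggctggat
H2-Eb1, chr17:34305747-34305866, plus strand: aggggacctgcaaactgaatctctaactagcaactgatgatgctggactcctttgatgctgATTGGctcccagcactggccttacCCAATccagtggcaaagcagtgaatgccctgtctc
H2-DMb1, chr17:34153071-34153190, plus strand: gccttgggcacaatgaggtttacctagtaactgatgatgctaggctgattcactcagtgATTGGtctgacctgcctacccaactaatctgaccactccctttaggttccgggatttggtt
H2-DMb2, chr17:34145129-34145248, plus strand: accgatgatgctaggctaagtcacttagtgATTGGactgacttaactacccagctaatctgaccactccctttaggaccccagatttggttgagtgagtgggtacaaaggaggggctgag
H2-Oa, chr17:34092259-34092378, plus strand: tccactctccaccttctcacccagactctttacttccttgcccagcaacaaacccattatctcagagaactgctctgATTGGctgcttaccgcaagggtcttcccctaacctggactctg
H2-Ob, chr17:34238785-34238904, plus strand: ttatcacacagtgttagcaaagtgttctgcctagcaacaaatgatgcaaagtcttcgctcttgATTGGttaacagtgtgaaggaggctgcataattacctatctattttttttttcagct

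All 6 carry the Y box core on the other strand, between 43 and 90 bases before the start site, and H2-Eb1 carries a second copy at 35 bases. In the 250 bases before the start site, the core was found for 7 of 7 members with a window, while 33.8% of all 32851 promoter windows hold it on either strand. In H2-DMa it stood 198 bases before the start site in 1 of 2 windows and was not found in the other. A longer form, TGATTGG, contains the reversed core and was chosen after the promoters had been read. It was found in 6 of 8 member windows, those of the 6 genes shown, and in neither H2-DMa window. Among all windows 7.23% hold it, but the form was picked from these same promoters, so the 2 shares are not a test. The X2 core was found in H2-Aa alone among the 7 members, as 2 overlapping matches on opposite strands, and 17.8% of all windows hold it. Every member with a window carried the Y box core in at least 1 window, so its presence could not separate members by their differences. No window was found for H2-Ab1, Cd74 and Ciita. A match is a string of letters and not a bound site.

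**Figure D1:**
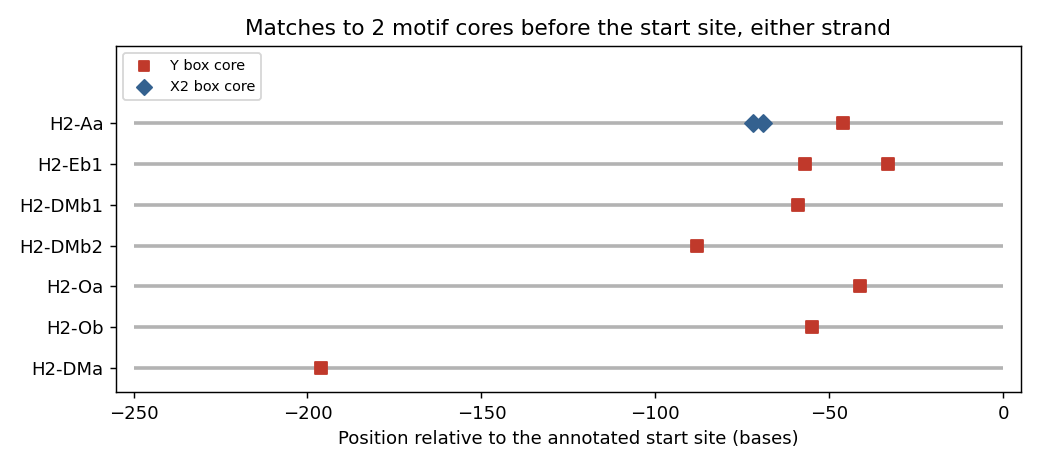
Positions of Y box cores (squares) and X2 box cores (diamonds) on either strand in the 250 bases before the annotated start site, in bases from that site, for 7 genes. Y box cores lie between 35 and 90 bases before the start in 6 genes and at 198 bases in 1 of the 2 H2-DMa windows, which are drawn on 1 line.

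Above the floor, 14 of 18 class II probe sets had a higher value on the high fat diet array and 4 had a lower one, against 50.4% of all probe sets above the floor that were higher. At least 1.5-fold higher were 13 of 18, against 8.25% of all, and at least 2-fold higher were 4 of 18, against 2.98% of all. The median over these 18 was 0.73. When each gene was represented by its brightest probe set, 8 members lay above the floor, of which 6 were higher and 2 (H2-DMb2 and H2-Oa) were lower by 0.02 each, beside 49.9% of all 11778 genes that were higher. Of these 8 genes, 5 were at least 1.5-fold higher (8.20% of all genes) and 0 at least 2-fold higher (3.28% of all genes), and 0 were at least 1.5-fold lower (8.52% of all genes). Their median difference was 0.65, beside a median of 0 over all genes above the floor.

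**Figure D2:**
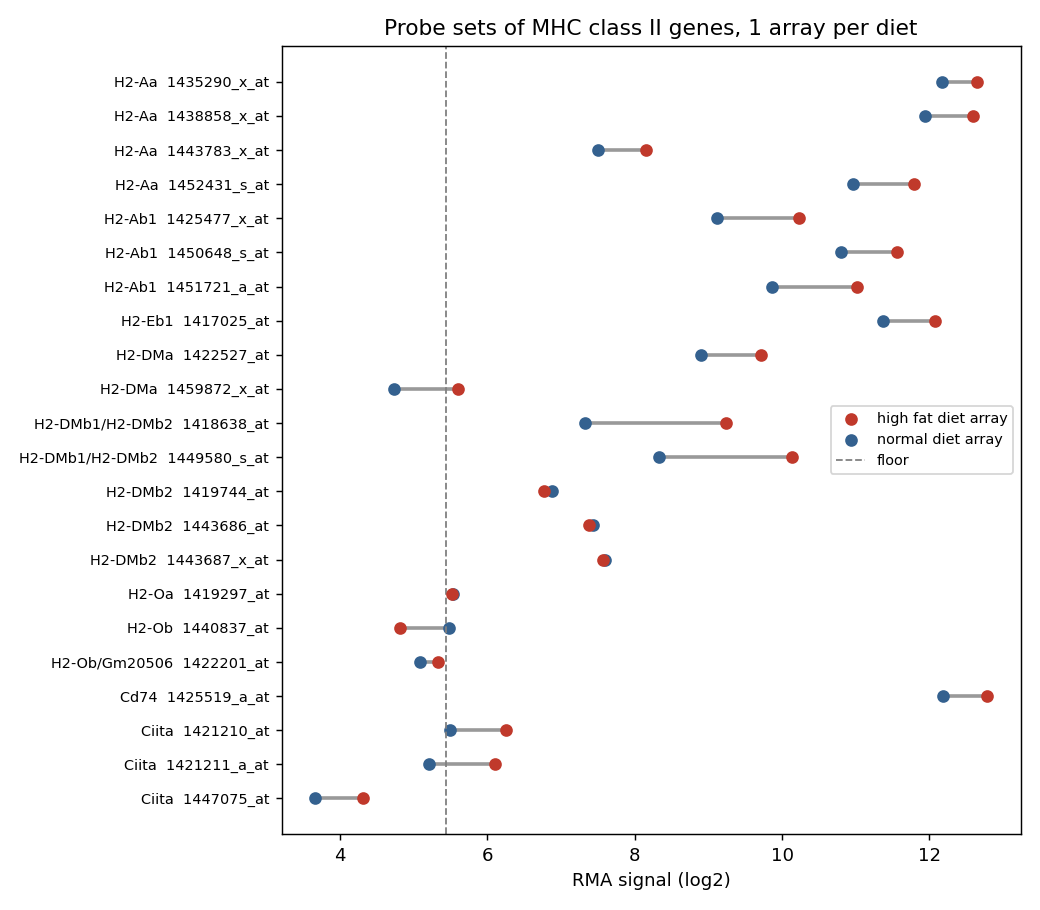
RMA signal (log2) of every probe set that names a class II gene, with the high fat diet array in red, the normal diet array in blue, and the floor as a dashed line. All 14 probe sets of H2-Aa, H2-Ab1, H2-Eb1, H2-DMa, Cd74 and Ciita and both shared H2-DMb probe sets have the red point on the right, whereas the red and blue points of H2-DMb2 and H2-Oa nearly coincide.

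The classical chains, which form the peptide-binding molecules at the cell surface, all had higher signals under the high fat diet. H2-Aa encodes the alpha chain of the A molecule. Its 4 probe sets had 12.64, 12.59, 8.16 and 11.79 on the high fat diet array, against 12.17, 11.93, 7.50 and 10.96 on the normal diet array, in the order 1435290_x_at, 1438858_x_at, 1443783_x_at and 1452431_s_at. The differences were 0.46, 0.65, 0.66 and 0.83, or 1.38-, 1.57-, 1.58- and 1.78-fold, with a mean of 0.65 and an SD of 0.15 over the 4 probe sets. All 4 pointed the same way, and all carry a mark for several transcripts, so no H2-Aa value free of that mark exists here.

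H2-Ab1 encodes the beta chain that pairs with H2-Aa. Its 3 probe sets had 10.23, 11.56 and 11.02 on the high fat diet array, against 9.12, 10.79 and 9.86 on the normal diet array (1425477_x_at, 1450648_s_at and 1451721_a_at). The differences of 1.11, 0.77 and 1.16, or 2.16-, 1.71- and 2.24-fold, averaged 1.02 with an SD of 0.21. The brightest of the 3, which stands for the gene in the counts, had the smallest difference, as the brightest of the 4 H2-Aa probe sets had within its own gene. Over all genes, the quartiles of the differences lay at -0.25 and 0.24 between the floor and a level of 8. They lay at -0.22 and 0.22 from 8 to 10, at -0.20 and 0.23 from 10 to 12, and at -0.12 and 0.20 above 12. The mean levels of the H2-Ab1 probe sets ran from 9.68 to 11.18, and those of H2-Aa from 7.83 to 12.41. A part of level in the smaller differences was not tested.

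H2-Eb1 encodes the beta chain of the E molecule. Its single probe set had 12.08 on the high fat diet array and 11.37 on the normal diet array, a difference of 0.71 or 1.64-fold. Mice of the H2b haplotype, to which C57BL/6 belongs, make no E alpha chain because the promoter of H2-Ea is deleted, so the E molecule itself is not assembled. H2-Ea, listed as a transcribed pseudogene in the RefSeq table, had 6.76, 3.08 and 2.94 on the high fat diet array, against 6.82, 3.08 and 2.72 on the normal diet array. The last pair of these probe sets was below background on both arrays and the brightest differed by -0.06. Among the neighbours of the region, H2-Eb2 differed by 0.29 and Btnl2, a butyrophilin-like gene, by 0.38.

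Cd74, which encodes the invariant chain that escorts new class II pairs to endosomes, had 12.78 on the high fat diet array and 12.18 on the normal diet array on its only probe set. The difference of 0.60, or 1.51-fold, lay in the lower part of the range of the chains it binds, 0.46 to 1.16. Measured by distance over the 2 log2 values, the genes whose levels lay nearest to those of Cd74 were Angptl4, a secreted inhibitor of lipoprotein lipase, at 12.87 on the high fat diet array and 12.19 on the normal diet array, then the lysosomal protease gene Ctsd at 12.89 and 12.15, and Agpat2, an enzyme of triglyceride synthesis, at 12.68 and 12.24. The distances were 0.09, 0.11 and 0.12 and rest on 2 arrays.

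The peptide-loading genes gave a divided picture. H2-DMa, the alpha chain of H2-DM, had 9.71 on the high fat diet array and 8.90 on the normal diet array on 1422527_at, a difference of 0.81 or 1.75-fold. Its dimmer probe set 1459872_x_at had 5.60 and 4.74 in the same order and was at least 1.59-fold higher, since the normal diet value was below background. The mean of this probe set lay under the floor.

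The beta chain of H2-DM has 2 neighbouring genes in the mouse, H2-DMb1 and H2-DMb2. Probe sets naming both had 9.24 and 10.13 on the high fat diet array, against 7.33 and 8.33 on the normal diet array (1418638_at and 1449580_s_at). Their differences of 1.91 and 1.80, or 3.77- and 3.49-fold, were the highest of all 22 class II probe sets. The 3 probe sets naming H2-DMb2 alone had 6.77, 7.37 and 7.57 on the high fat diet array, against 6.88, 7.43 and 7.59 on the normal diet array, with differences of -0.11, -0.06 and -0.02.

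The shared and the H2-DMb2 probe sets did not overlap, and their means were 1.92 apart, which is beyond the SD of 0.27 between probe sets of 1 gene. The first shared probe set is listed under the accession of the H2-DMb1 transcript and the second under that of H2-DMb2. The part of each gene in the shared signal cannot be told apart, since no probe set reads H2-DMb1 alone. In the 250 bases before the start site, a local alignment of both promoters matched in 174 of 221 positions (78.7%), and both carry TGATTGG.

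**Figure D3:**
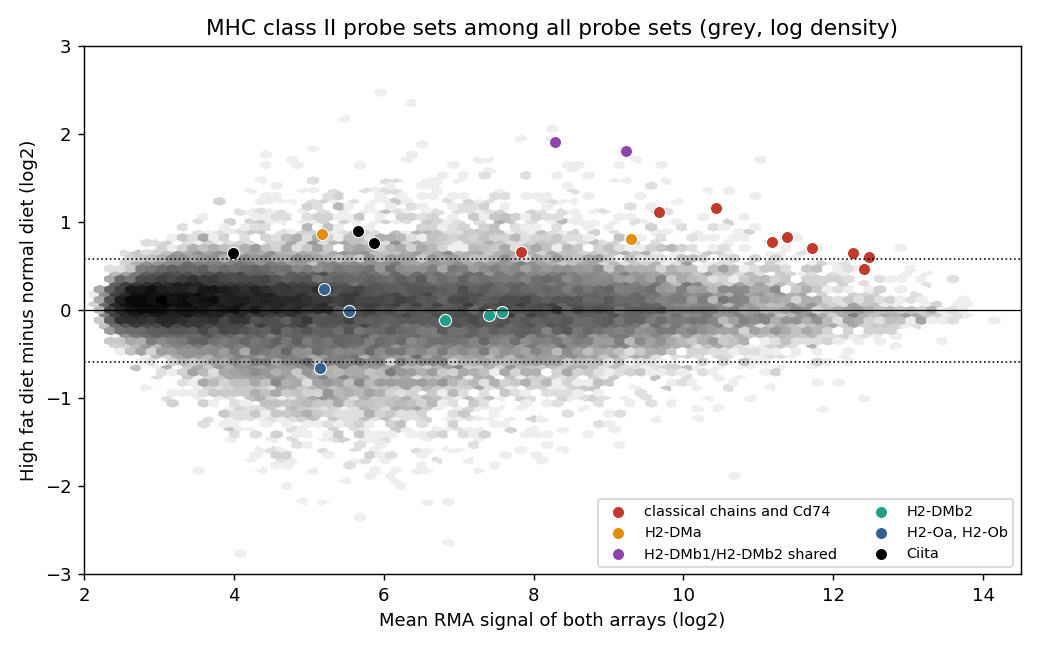
Difference between the arrays (high fat diet minus normal diet, log2) against the mean level of both arrays for all probe sets other than controls (grey, darker where denser; differences beyond the axis are not drawn), with class II probe sets in colour and dotted lines at 1.5-fold. The shared H2-DMb1/H2-DMb2 probe sets stand highest at 1.91 and 1.80, the classical chains and Cd74 lie between 0.46 and 1.16, and H2-DMb2 and H2-Oa lie at the zero line.

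The genes of the restraining pair H2-O lay close to the floor. H2-Oa, its alpha chain, had 5.52 on the high fat diet array and 5.54 on the normal diet array, a difference of -0.02 just above the floor that was 0.06 when the arrays were quantile normalized, so its sign has no weight. H2-Ob, its beta chain, had 4.82 on the high fat diet array, below background, and 5.48 on the normal diet array on 1440837_at, at least 1.43-fold lower. The probe set that names H2-Ob and Gm20506, 1422201_at, pointed the other way, with 5.33 on the high fat diet array and 5.08 on the normal diet array. Both lie under the floor and they point opposite ways, so no direction can be given for H2-Ob.

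Ciita, the master regulator of the class, had 6.25 and 6.11 on the high fat diet array, against 5.49 and 5.21 on the normal diet array (1421210_at and 1421211_a_at). The differences were 0.76 and 0.89, or 1.69- and 1.86-fold. The third probe set, 1447075_at, was below background on both arrays, at 4.31 on the high fat diet array and 3.66 on the normal diet array, and gives no fold. The genes nearest to Ciita in level were Oip5, Hapln3 and Plxdc1, with differences of 0.70, 0.72 and 0.78 and distances of 0.04, 0.05 and 0.06 over the 2 arrays.

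Factors that sit with CIITA on class II promoters had smaller differences than Ciita. Of 8 genes of RFX, NF-Y, CREB and a cofactor, 4 were higher and 4 lower, 0 of them by 1.5-fold, with a median of -0.04. Among all genes above the floor, 49.9% were higher and 8.20% at least 1.5-fold higher. The counts of the 8 are near these shares, so they show nothing particular to these factors. Rfx5, a subunit of the complex on the X box, had 7.54 on both arrays. Nfya, a subunit of the Y box factor, stood highest at 0.30 and Zxdc, the cofactor, lowest at -0.33.

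Interferon gamma is the classical inducer of Ciita in cells that do not make it constantly. Ifng itself was below background on both arrays, at 2.86 on the high fat diet array and 2.90 on the normal diet array. Of 6 signalling genes above the floor, 3 were higher and 3 lower, with a median of 0.07, beside 49.9% of all genes that were higher. Irf8, a transcription factor of macrophages and dendritic cells, had the highest difference of 1.17 and the receptor-associated kinase Jak2 the lowest of -0.37. Socs1, a feedback inhibitor, was below background on both arrays.

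Genes that process antigen and the invariant chain were higher with the class II genes. Of 9 genes, 8 were higher, with a median of 0.74, and 6 reached 1.5-fold and 3 reached 2-fold. Over all genes above the floor, 49.9% were higher, 8.20% at least 1.5-fold and 3.28% at least 2-fold. The median of the 9 genes depended on the choice of probe set. With the mean over each gene's probe sets it was 1.002, while the class II median was 0.65 over 7 genes. For Ctsb, 1 of the 9, the brightest probe set differed by 0.29 and the others by 1.52, 1.05, 0.79 and 0.39. Ctss, the protease that makes the final cuts in the invariant chain in many presenting cells, had 12.86 on the high fat diet array and 11.29 on the normal diet array, 2.96-fold higher. Lgmn, an asparaginyl endopeptidase, had 10.68 on the high fat diet array and 9.23 on the normal diet array, a difference of 1.46. Ifi30, the thiol reductase that opens disulphide bonds of antigens, had 10.26 and 9.03 in the same order, a difference of 1.23. Ctse, an aspartic protease, had 6.06 on both arrays.

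Surface turnover of class II is set by the ubiquitin ligase MARCH1, which removes it, and by CD83, which opposes that removal. Marchf1 had 7.08 and 6.78 on the high fat diet array, against 6.04 and 5.65 on the normal diet array, with differences of 1.05 and 1.12 on its 2 probe sets above background. Cd83 had 8.80 on the high fat diet array and 7.61 on the normal diet array, a difference of 1.19. The related ligase gene Marchf8 differed by -0.13. Both the remover and its opponent were thus higher on the same array.

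MHC class I genes, which present peptides from the cytosol in nearly all cells, differed less in size. Of 14 genes 12 were higher and 2 lower, 0 of them by 1.5-fold, with a median of 0.16, beside 0.65 for class II. H2-K1, a class I heavy chain, had the highest difference of 0.50 and the chaperone Canx the lowest of -0.14. B2m, the light chain, had 13.89 on the high fat diet array and 13.83 on the normal diet array, near the top of the scale. Nlrc5, the class I counterpart of Ciita, differed by -0.03, named after its values were seen. The difference between the 2 classes was not tested, as each rests on the same 2 arrays.

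Of 5 costimulatory or coinhibitory ligands above the floor, 3 were higher and 2 lower, with a median of 0.21, beside 49.9% of all genes that were higher. Cd86, which gives T cells their second signal, had 6.95 and 6.86 on the high fat diet array, against 6.36 and 5.95 on the normal diet array, 1.51- and 1.88-fold higher. The inhibitory ligand gene Cd274 had the lowest difference of -0.09. Genes of the T cells that read class II gave 1 higher and 4 lower of 5 above the floor, beside the same 49.9% of all genes. Their median was -0.17. Cd4, the coreceptor that binds class II, had 6.02 on the high fat diet array and 6.19 on the normal diet array, Lag3, another receptor for class II, had the highest difference of 0.32, and Cd247, a signalling chain of the T cell receptor, the lowest of -0.81.

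Markers of the cells that carry class II differed between the arrays as well. In bulk tissue, a difference in the number of cells of a type and a difference in RNA per cell cannot be told apart. Of 13 macrophage markers 12 were higher, beside 49.9% of all genes. At least 1.5-fold higher were 9 (8.20% of all genes), and 5 reached 2-fold (3.28% of all genes). The median of the 13 markers was 0.69. Their summed signal was 14.95 on the high fat diet array and 14.18 on the normal diet array on the log2 scale. Cd68, a lysosomal glycoprotein, had the highest difference of 2.30, Adgre1, a surface receptor that marks mouse macrophages, had 1.65, and Mertk, a receptor for dying cells, the lowest of -0.40. None of the 13 was below background.

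Dendritic cell markers gave 5 higher and 2 lower of 7 above the floor, with a median of 0.23, beside 49.9% of all genes that were higher. Their summed signal was 10.51 on the high fat diet array and 9.67 on the normal diet array. Without Itgax the summed signal was 9.66 on the high fat diet array and 9.44 on the normal diet array, a ratio of 1.16, against 1.78 with it, and with the floor at the 75th percentile the median was 1.31 over 2 genes. Itgax, the CD11c integrin that macrophages of obese fat also carry, had the highest difference of 2.42 and Itgae, the CD103 integrin, the lowest of -0.28. Xcr1 and Ccr7 were below background on both arrays. B cell markers gave 1 higher and 3 lower of 4 above the floor, with a median of -0.47, beside the same 49.9% of all genes. Their summed signal was 8.63 on the high fat diet array and 9.05 on the normal diet array. Ms4a1, the B cell antigen CD20, had the lowest difference of -1.13 and the lectin Cd22 the highest of 0.20. Cd79a, a chain of the B cell receptor, was at least 1.64-fold lower but lay under the floor, so it is outside these counts. Blk, Fcer2a and Cr2 were below background on both arrays. The part of each cell type in the class II differences was not tested.

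**Figure D4:**
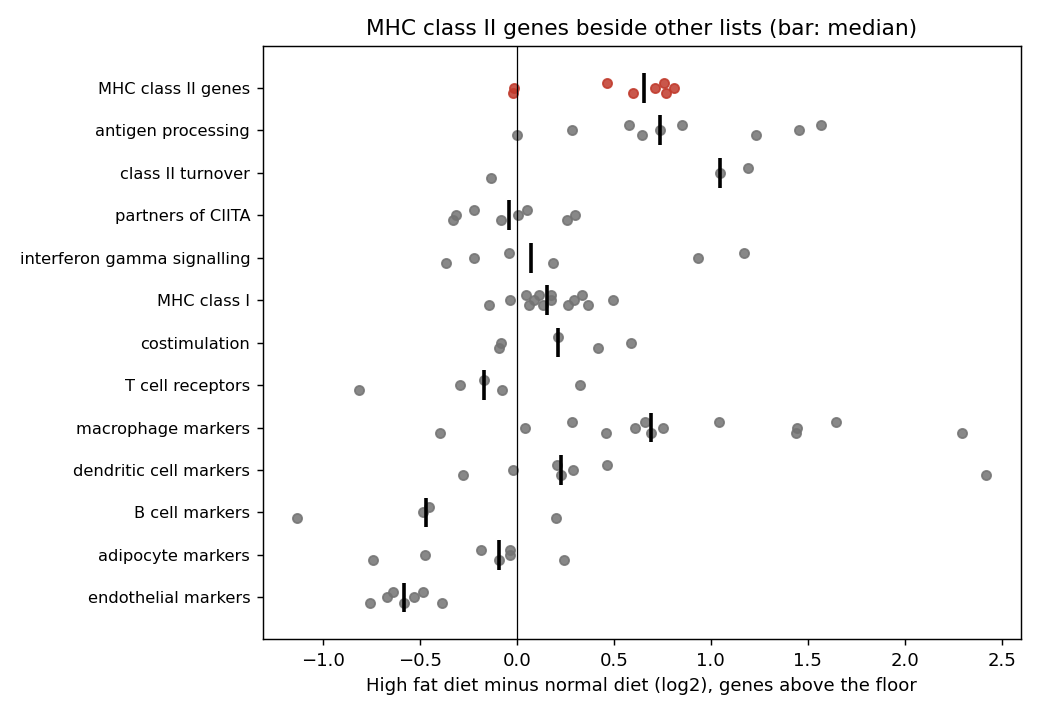
Differences between the arrays (high fat diet minus normal diet, log2) for genes above the floor in 13 lists, 1 point per gene and a bar at each list's median, with the class II genes in red at the top. With the brightest probe set of each gene, the class II median of 0.65 lies near those of antigen processing (0.74) and macrophage markers (0.69). B cell markers lie at -0.47 and class I genes at 0.16. With the mean over each gene's probe sets, the antigen processing median was 1.002 and the class II median 0.65.

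The arrays held adipose tissue by its markers and also transcripts of other tissues in unequal amount. Adipoq, the adipocyte hormone adiponectin, had 14.12 on the high fat diet array and 14.21 on the normal diet array, and 7 adipocyte markers had a median of -0.09, with Cidec highest at 0.25 and Slc2a4 lowest at -0.74. All 7 endothelial markers were lower, with a median of -0.58 that ran from Cdh5 at -0.39 to Emcn at -0.76. Over all genes above the floor, 49.9% were higher. With values under background raised to it, so that the size is a lower limit, 8 liver and 5 pancreas transcripts had medians of -5.30 and -3.06, and 5 epididymis transcripts had a median of 3.79. Among them Alb was 37.9-fold and Fga at least 24.7-fold lower, Prss2 4.16-fold and Cpb1 at least 15.4-fold lower, and Gpx5 16.4-fold and Lcn8 at least 21.6-fold higher. Skeletal muscle transcripts had a median of -2.00 over 6 genes, from Acta1 at -0.62 to Myh4 at -2.72, and of -1.04 with the mean of each gene's probe sets. Their part in the class II values was not tested.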

How the data were processed

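Total RNA of adipose tissue, pooled from 3 animals per diet, was labelled with biotin and hybridised to 1 Affymetrix array per diet. The authors deposited log2 signals computed with RMA, per the submitters' processing notes, which give no version. RMA removes background, equalises the arrays and summarises the probes of each set. That the values are log2 follows from their range, 2.06 to 14.21 (high fat diet) and 2.04 to 14.28 (normal diet). The equalising step sets the arrays to nearly equal distributions, so a change in total RNA cannot be seen.

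Gene names came from GEO's annotation of the platform. Of 45037 probe sets other than controls, 34945 had 1 symbol, 932 several and 9160 none. The Entrez IDs of all 22 member probe sets were found in the RefSeq table, which changed 0 symbols. A gene's brightest probe set, by its mean over the arrays, stood for the gene. No p-value or SD between samples is possible, and calls are by size (1.5-fold, or 2-fold). The counting code was run on simulated data, with shifts well past the cutoff and less noise than between probe sets of 1 gene. That run checks the code only and says nothing about the calls made here. Calculations used Python 3.11.15 with pandas 2.3.3 and numpy 2.4.6. Members and list genes without a probe set of their own were not analysed here.

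The members and lists were chosen with earlier results of these data known. The genes named are all 10 members, the highest and lowest member of each list above the floor, a set of fixed genes, and the 3 genes nearest in level to Cd74 and to Ciita; others are said to be chosen after their values were seen. Alternatives were another probe set per gene, other floors, other scalings and another fold.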

Additional observations from a re-analysis of the deposited data

How the results depend on the processing

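No paired analysis was possible because each diet has 1 array, and for the same reason no replicate could be left out. Over 10 alternatives the median difference of the class II genes ran from 0.60 to 0.73. The count of 5 genes at least 1.5-fold higher was between 4 and 6 under the other settings and 0 at 2-fold. The count of 14 of 18 probe sets that were higher was 7 of 10 without probe sets marked _x_at or _s_at. With no floor, 8 of 9 probe sets so marked were higher and 8 of 12 others. The count was 15 of 18 with quantile normalization, where H2-Oa had 0.06. It was 12 of 12 with the floor at the 75th percentile, where H2-DMb2, H2-Oa and Ciita were no longer counted. Adding the brighter shared H2-DMb1/H2-DMb2 probe set as 1 more gene, chosen after seeing the data, gave a median of 0.71 and 6 genes. H2-Aa had 0.83 without _x_at probe sets, and H2-Ab1 had 1.16 without both kinds. No class II value that was at least 1.5-fold changed direction in the alternatives run. The number of arrays, with signal over background for Ciita, H2-Oa and H2-Ob, limits the precision.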
